A study of Mus musculus with 6 samples.

Results

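Genes that mark oligodendrocyte precursors or encode myelin proteins, 8 in number, were followed in ventral forebrain taken from mouse embryos at E13.5 (E for embryonic day): Pdgfra, Sox10, Sox8, Cspg4, Mbp, Cnp, Gpr17 and Myt1. They were chosen by name, and every probe set whose annotation gives exactly 1 of these symbols was taken, which gave 23 of the 45037 non-control probe sets of the array. One group of embryos lacked both copies of Olig2, which encodes a basic helix-loop-helix transcription factor (Olig2-/-), and the other was Olig2+/+. Each array carried RNA pooled from 3 brains, and 3 arrays per genotype were analysed. The design text states 5 replicates per genotype, while the series holds 3 arrays of each. The knockout arrays are those numbered 2, 4 and 5, the wild-type arrays those numbered 1, 4 and 5, and values below follow that order. The labels state neither the strain nor the structure of the allele. The design text names the tissue ventral forebrain, while the sample labels name it ventral telencephalon. With the whole tissue on each array, fewer cells of a type and less RNA per cell cannot be told apart.

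Oligodendrocyte precursors arise from ventral progenitors of the embryonic neural tube and later give the myelinating cells of the brain. In the mouse, Olig2 is needed for most of them to be specified, and the first wave in the forebrain comes from the ventral telencephalon around mid-gestation. Early precursors carry the receptor Pdgfra and the proteoglycan Cspg4 (NG2) and express Sox10, while Gpr17 marks later, committed precursors and Mbp and Cnp are products of the myelin sheath. Several of these genes are also used outside the lineage. Pdgfra is found in mesenchyme and meninges, Cspg4 in pericytes, Myt1 in neuronal progenitors, and the Mbp locus also gives golli transcripts that neurons express.

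Olig2 belongs to a class of factors that bind the E-box, written CANNTG, so the start-site windows of Pdgfra and Cnp, the detected precursor receptor and a detected myelin gene, are printed here. Both are RefSeq sequences of build GRCm38.p6 on the plus strand, in windows of 300 bases that span an annotated start, with each CANNTG in capitals.
Pdgfra, chr5:75152001-75152300: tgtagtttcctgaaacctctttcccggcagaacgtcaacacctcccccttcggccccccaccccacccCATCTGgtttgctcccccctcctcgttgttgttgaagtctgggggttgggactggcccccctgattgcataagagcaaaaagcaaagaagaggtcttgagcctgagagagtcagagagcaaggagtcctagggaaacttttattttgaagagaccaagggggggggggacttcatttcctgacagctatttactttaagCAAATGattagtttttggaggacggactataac
Cnp, chr11:100574689-100574988: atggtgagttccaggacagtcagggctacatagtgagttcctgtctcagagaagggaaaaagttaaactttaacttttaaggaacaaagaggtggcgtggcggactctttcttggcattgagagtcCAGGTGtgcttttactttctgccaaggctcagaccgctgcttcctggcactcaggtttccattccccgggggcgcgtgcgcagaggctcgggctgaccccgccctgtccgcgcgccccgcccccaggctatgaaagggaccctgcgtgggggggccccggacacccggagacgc
The Pdgfra window holds 2 matches and the Cnp window 1. CANNTG reads the same on both strands, and it occurs in 72.3% of all 32851 such windows, so a match is a description of these letters and not a binding site. The Cspg4 window holds 0 matches, the Sox8 window 1 and the 3 windows of Myt1 hold 0, 2 and 1. The symmetrical forms CAGCTG and CATATG, which are cases of CANNTG, are in 16.3% and 3.91% of all windows and in none of these 7. Windows of Sox10, Mbp and Gpr17 were not read.

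The values are log2 expression values per probe set that the authors made with GCRMA, a method that subtracts background by probe sequence and leaves undetected probe sets at a floor. The lowest value on each array was 2.27, and 42.2% to 42.6% of values per array lay within 0.25 of that floor. Array medians ran from 3.14 to 3.19. A probe set was kept for testing if it was above its array's median on at least 3 of the 6 arrays. Each kept probe set was compared between the genotypes with limma, with Benjamini-Hochberg adjustment over all 22565 kept probe sets and a threshold of 0.05. P-values reflect only the spread among the 6 pools, and so few arrays limit the precision.

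Olig2 itself read 7.48, 7.53 and 7.76 on the knockout arrays, against 8.20, 8.22 and 8.42 on the wild-type arrays. The groups did not overlap, but the labels do not say whether its probe set lies in the deleted stretch. Of markers of the ventral telencephalon, 7 of the 8 matched genes were kept, among them Lhx6, Lhx8, Dlx1 and Dlx2. Nkx2-1 was not kept, and its probe set read between 2.69 and 3.36 over the 6 arrays. No probe set of the series passed limma's adjusted threshold (0%, smallest adjusted p = 0.511), and 2121 of 22565 (9.4%) had an unadjusted p below 0.05. Every comparison below therefore gives values and differences that did not pass.

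Of the 23 member probe sets, 8 were kept, 9 lay within 0.25 of the floor on all 6 arrays, and 6 lay between. Over the whole array 50.1% of probe sets were kept, 39.2% lay at the floor on all arrays and 10.7% lay between, against 34.8%, 39.1% and 26.1% of the members. The kept probe sets belong to Pdgfra, Mbp, Cnp and Myt1. Sox10, Sox8, Cspg4 and Gpr17 had none.

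**Figure D1:**
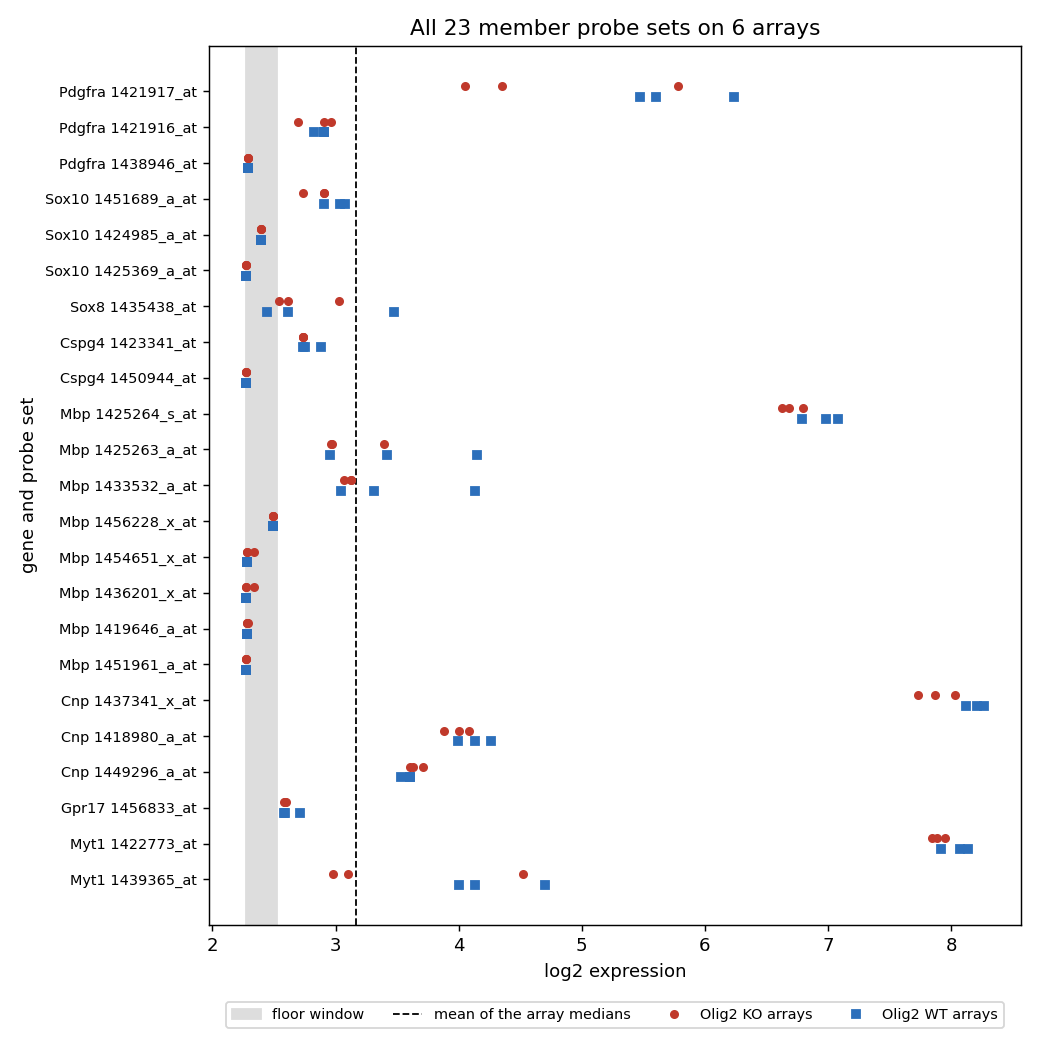
Log2 expression (x axis) of each of the 23 member probe sets (rows, by gene) on the 3 Olig2 KO arrays (circles) and the 3 Olig2 WT arrays (squares). The grey band is the floor window of 0.25 and the dashed line the mean of the array medians; 8 probe sets were kept, and 9 lie in the band on all 6 arrays.

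Pdgfra, the receptor through which PDGF-A drives precursor division and migration, had the widest difference of the kept members. Its kept probe set, 1421917_at, read 5.78, 4.05 and 4.36 on the knockout arrays, against 6.24, 5.60 and 5.47 on the wild-type arrays. Knockout replicates 4 and 5 lay below every wild-type array, and knockout replicate 2 lay among them. Knockout tissue averaged 4.73 ± 0.92, against 5.77 ± 0.41 for wild-type tissue (SD, n = 3 each), which is 2.06-fold lower. On the log2 scale the difference was -1.04 (SE 0.49, 95% interval -2.24 to 0.16, limma's adjusted p = 0.511). Leaving out each array in turn gave from -1.57 without knockout replicate 2 (SE 0.27, limma's adjusted p = 0.194) to -0.70 without knockout replicate 4 (SE 0.50, limma's adjusted p = 0.714). Knockout replicate 2 was the one knockout array among the wild-type values, so the wider difference and the smaller error without it follow from its position.

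The other probe sets of Pdgfra gave no second measurement. Probe set 1421916_at, annotated with the same transcript accession as the kept one, read 2.96, 2.69 and 2.90 in the knockout and 2.90, 2.83 and 2.91 in the wild type, below every array's median. Probe set 1438946_at read 2.29 on all 6 arrays. The Pdgfra result thus rests on 1 of 3 probe sets.

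Cspg4, the surface proteoglycan NG2 of precursors and pericytes, had no kept probe set. Probe set 1423341_at read 2.74 on all 3 knockout arrays, against 2.88, 2.74 and 2.75 on the wild-type arrays. The reading was 2.74 on 4 of the 6 arrays, so only wild-type replicate 1 stood off that level by more than 0.03. Probe set 1450944_at read 2.27 on every array. At this signal a difference between the genotypes was not detectable.

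Sox10 and Sox8 are related HMG-box factors of the SoxE group that act in precursor differentiation, and both were dim. The brightest Sox10 probe set, 1451689_a_at, read 2.91, 2.91 and 2.74 in the knockout and 3.08, 2.91 and 3.03 in the wild type. It was below the median of every array, 3 of its 6 readings were equal to 3 decimals, and the groups overlapped. The other Sox10 probe sets stayed at 2.39 and 2.27 on all 6 arrays. The single Sox8 probe set, 1435438_at, read 3.03, 2.61 and 2.54 in the knockout and 2.61, 3.47 and 2.45 in the wild type. Only wild-type replicate 4 was above its array's median there, and wild-type replicate 5 was within the floor window.

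Myt1, a zinc finger factor of neural progenitors that is also expressed in precursors, was kept at both of its probe sets. The brighter one, 1422773_at, read 7.95, 7.84 and 7.89 in the knockout, against 8.14, 7.92 and 8.07 in the wild type. Only knockout replicate 2 and wild-type replicate 4 crossed, and the 6 readings spanned 0.29. The log2 difference was -0.15 (SE 0.08, 95% interval -0.35 to 0.06, limma's adjusted p = 0.529). Probe set 1439365_at read 4.53, 3.10 and 2.98 in the knockout, against 4.13, 4.70 and 4.002 in the wild type. As at Pdgfra, knockout replicates 4 and 5 were below every wild-type array and knockout replicate 2 was not. Its log2 difference was -0.74 (SE 0.45, 95% interval -1.86 to 0.37, limma's adjusted p = 0.544). Averaged over both probe sets, Myt1 differed by -0.45 (SE 0.23, limma's adjusted p = 0.535).

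Gpr17, a G-protein-coupled receptor of committed precursors, stayed just above the floor window. Its single probe set, 1456833_at, read 2.59, 2.58 and 2.60 in the knockout and 2.59, 2.58 and 2.71 in the wild type. Its readings lay within 0.03 of the lowest one on 5 of the 6 arrays.

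**Figure D2:**
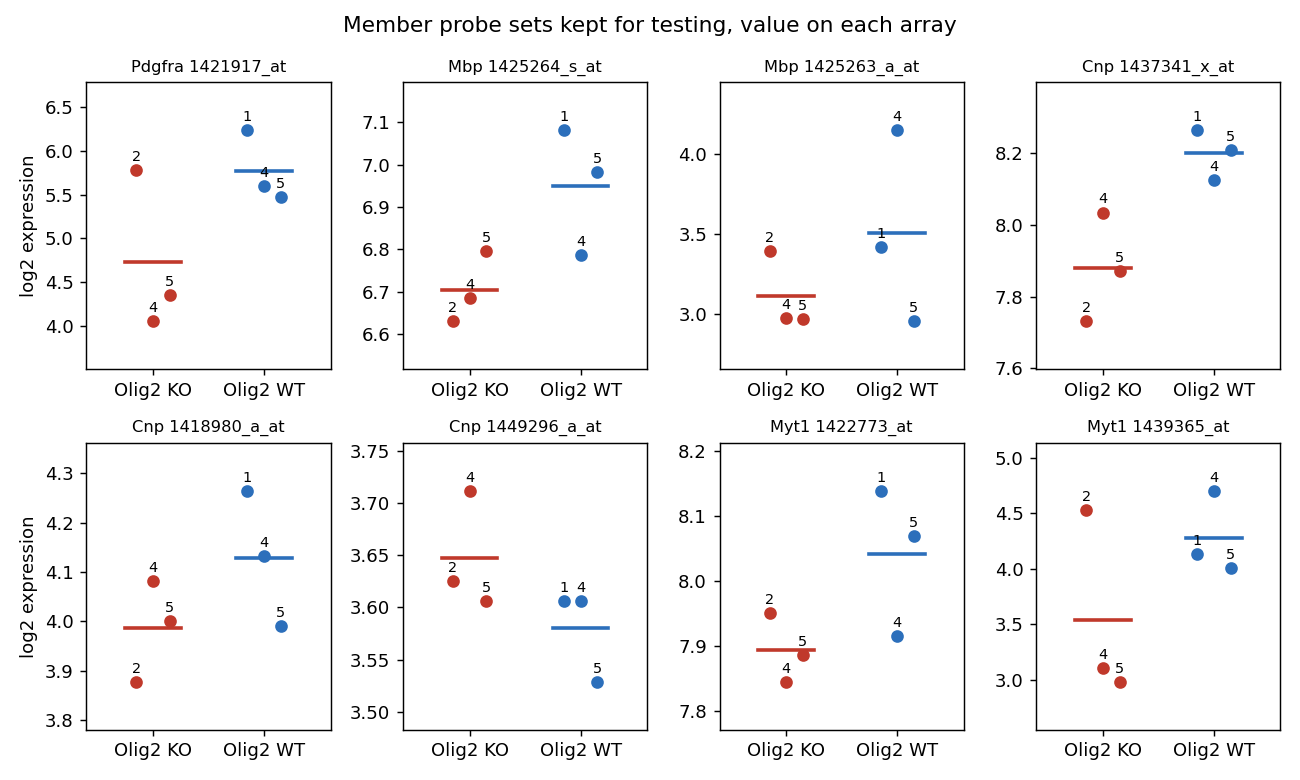
Log2 expression (y axis, a separate range per panel) of the 8 kept member probe sets on each array, Olig2 KO left and Olig2 WT right, with the replicate number beside each point and the group mean as a bar. At Cnp 1437341_x_at the 3 KO arrays lie below the 3 WT arrays; at Pdgfra and Myt1 1439365_at KO replicate 2 lies apart from KO replicates 4 and 5.

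Cnp, a cyclic nucleotide phosphodiesterase of myelin-forming cells, was the one kept member gene whose groups did not overlap. Probe set 1437341_x_at read 7.73, 8.03 and 7.87 in the knockout, against 8.26, 8.13 and 8.21 in the wild type. The knockout averaged 7.88 ± 0.15 and the wild type 8.20 ± 0.07 (SD, n = 3 each). The log2 difference was -0.32 (SE 0.10, 95% interval -0.56 to -0.08), 1.25-fold lower, with an unadjusted p = 0.0183 and an adjusted p = 0.511 in limma. Complete separation of this kind, with the knockout lower, was found for 1 of the 8 kept member probe sets (7.25% over all kept probe sets) and 1 of the 4 kept member genes (7.96% over all kept genes).

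The other Cnp probe sets differed less, and in both directions. Probe set 1418980_a_at lay between 3.88 and 4.08 in the knockout and between 3.99 and 4.26 in the wild type, a log2 difference of -0.14 (SE 0.10, limma's adjusted p = 0.573). Probe set 1449296_a_at read 3.63, 3.71 and 3.61 in the knockout and 3.61, 3.61 and 3.53 in the wild type, a log2 difference of 0.07 (SE 0.07, limma's adjusted p = 0.669). On Affymetrix arrays the suffix x marks a probe set in which some probes also match other sequences, while the suffix a marks probes shared by transcripts of the same gene. Averaged over its 3 probe sets, Cnp differed by -0.13 (SE 0.08, limma's adjusted p = 0.56), and the groups then overlapped.

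Mbp, the basic protein that compacts the myelin sheath, had 8 probe sets, of which 5 lay at the floor on all 6 arrays and 2 were kept. The bright one, 1425264_s_at, read 6.63, 6.69 and 6.80 in the knockout, against 7.08, 6.79 and 6.98 in the wild type. The suffix s marks probes shared by transcripts of more than one gene. Only knockout replicate 5 and wild-type replicate 4 crossed. The log2 difference was -0.25 (SE 0.10, 95% interval -0.49 to 0.0023, limma's adjusted p = 0.511). Leaving out each array in turn gave from -0.33 without wild-type replicate 4 (limma's adjusted p = 0.256) to -0.18 without wild-type replicate 1 (limma's adjusted p = 0.746).

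The other Mbp probe sets above the floor were dim. Probe set 1425263_a_at read 3.39, 2.97 and 2.97 in the knockout and 3.42, 4.15 and 2.95 in the wild type, a log2 difference of -0.40 (SE 0.32, limma's adjusted p = 0.607). Its high readings were on knockout replicate 2 and wild-type replicates 1 and 4. Probe set 1433532_a_at, which was not kept, read 3.12, 3.12 and 3.06 in the knockout and 4.13, 3.04 and 3.31 in the wild type, where replicate 1 stood apart. The 5 probe sets at the floor ran from 2.27 to 2.49. Which Mbp transcripts each probe set reads, golli or myelin forms, is not stated in the annotation used.

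**Figure D3:**
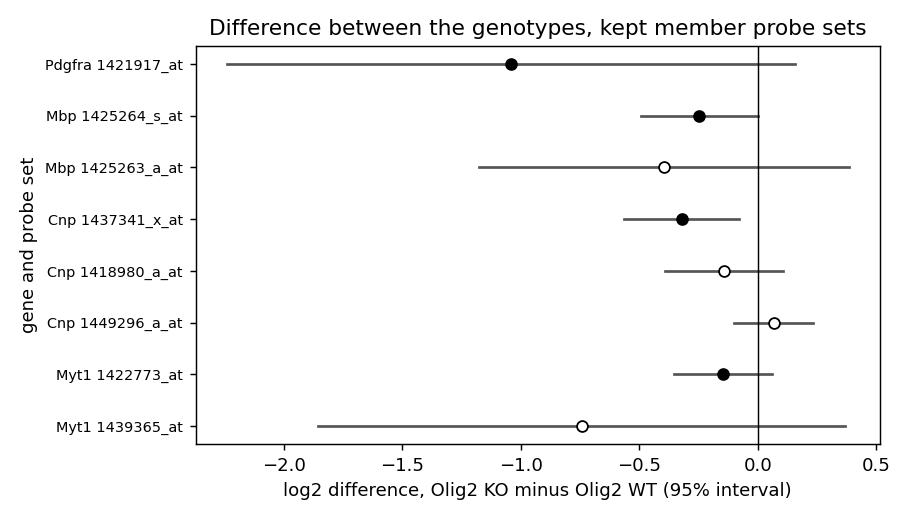
Log2 difference (x axis, Olig2 KO minus Olig2 WT) with limma's 95% interval for the 8 kept member probe sets; filled points are the probe set of highest mean of each gene and open points the others. All but Cnp 1449296_a_at are negative, and only the interval of Cnp 1437341_x_at lies wholly below 0.

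Taken by gene at the probe set of highest mean, all 4 kept members had a negative log2 difference, with a median of -0.28. Over the 10630 kept genes of the series 50.6% were negative, and the median was -0.0015. By probe set, 7 of the 8 kept member probe sets were negative, against 49.3% of all kept probe sets. The 4 genes are few, their probe sets share the same 6 arrays, and they were chosen with earlier results of these data known. One of the 4, Cnp, had an unadjusted p below 0.05 with the knockout lower, against 3.91% of kept genes. None passed after adjustment.

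The kept member probe sets varied together to different degrees over the arrays. Across the 6 arrays, Pdgfra 1421917_at and Myt1 1439365_at had a Pearson r of 0.86, with knockout replicate 2 higher than the mean of the other knockout arrays by 1.58 and 1.49. Mbp 1425264_s_at and Cnp 1437341_x_at had r = 0.83, and on knockout replicate 2 they differed from the other knockout arrays by -0.11 and -0.22. Between Pdgfra and Cnp 1437341_x_at r was 0.32, and between Pdgfra and Mbp 1425264_s_at 0.49. The bright Myt1 probe set, 1422773_at, had r = 0.79 with Pdgfra, 0.86 with Mbp 1425264_s_at and 0.61 with Cnp 1437341_x_at. Cnp 1449296_a_at was negatively correlated with 6 of the other 7, from -0.64 to -0.05, and had r = 0.11 with Cnp 1418980_a_at. These correlations are descriptions over 6 arrays that include the difference between genotypes.

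Genes most like Pdgfra over the 6 arrays were Zdhhc21 (r = 0.99), a palmitoyltransferase, Zic1 (r = 0.99), a zinc finger factor of the dorsal neural tube and meninges, Eif4g2 (r = 0.99), a translation factor, Pitpnc1 (r = 0.99), a phosphatidylinositol transfer protein, and Prrc2c (r = 0.99). Of 10626 kept genes compared, 120 had r above 0.9, which is a description of 6 arrays. Zic1 read 12.12, 11.77 and 11.86 in the knockout and 12.31, 12.12 and 12.11 in the wild type. Like Pdgfra, Zic1 and the other genes named here had the order of replicate 2 above 5 above 4 among the knockout arrays. They were picked for likeness to Pdgfra on these same 6 arrays, so the shared order follows from that choice.

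Markers of meninges and mesenchyme were in the mean highest on the same array of each genotype as Pdgfra. The mean level of the 14 listed markers, each at its brightest probe set, was 4.16, 3.06 and 3.08 on the knockout arrays and 3.51, 3.08 and 3.11 on the wild-type arrays. Of the 11 markers that left the floor window on some array and varied by over 0.03, 6 were highest of all arrays on knockout replicate 2 and 5 on wild-type replicate 1. By the same count wild-type replicate 1 was the highest array for 7 of 9 pericyte markers, among them the member Cspg4. It was also highest for 7 of 10 markers of differentiating neurons, 1 of 9 of radial glia and 0 of 10 of neurogenic progenitors. The share over all kept genes was not counted. Col3a1, a fibrillar collagen, read 8.10, 4.04 and 4.09 in the knockout and 6.20, 4.35 and 4.67 in the wild type. Col1a2, another fibrillar collagen, read 6.04, 2.51 and 2.50 in the knockout and 3.49, 2.45 and 2.45 in the wild type. Foxc2, Aldh1a2 and Osr1 were within the floor window on all arrays. With knockout replicate 2 and wild-type replicate 1 both left out, an alternative added once the data had been seen, Pdgfra differed by -1.33 (SE 0.14, limma's adjusted p = 0.312), a setting that leaves out the only knockout array that overlapped the wild type.

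**Figure D4:**
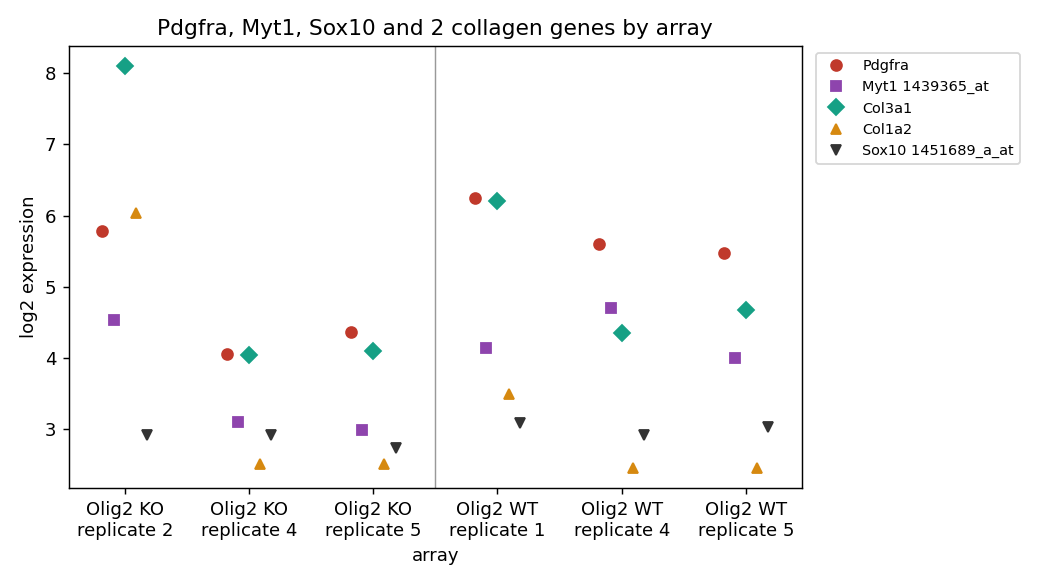
Log2 expression (y axis) of Pdgfra 1421917_at, Myt1 1439365_at, the collagen genes Col3a1 and Col1a2 and Sox10 1451689_a_at on each array (x axis), the 3 Olig2 KO arrays left of the line and the 3 Olig2 WT arrays right of it. Col3a1, Col1a2 and Pdgfra are highest in their genotype on KO replicate 2 and WT replicate 1, while Sox10 stays between 2.74 and 3.08.

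Other cell types that could carry member transcripts showed smaller movements. The mean of the 11 pericyte markers was 4.55, 4.59 and 4.55 in the knockout and 4.85, 4.44 and 4.49 in the wild type, and 2 of them were at the floor. The pericyte list includes Cspg4, itself a member. The 11 matched markers of neural crest, Schwann cell precursors and melanoblasts, which also use Sox10, averaged 3.59, 3.63 and 3.61 in the knockout. In the wild type they averaged 3.71, 3.59 and 3.62. Of these 11, 5 were at the floor on all arrays, among them Foxd3, Cdh19, Dct and Tyrp1, and 4 were kept. The kept ones averaged, in knockout and wild type, 9.21 and 9.36 (Ednrb), 6.96 and 7.10 (Kit), 3.44 and 3.68 (Ngfr), and 3.47 and 3.28 (Tfap2a). None passed. The 10 markers of differentiating neurons averaged 10.95, 10.85 and 10.87 in the knockout and 11.19, 11.00 and 10.97 in the wild type. Of these 10, 9 were lower in the knockout, none past the threshold, with a median log2 difference of -0.08. Over all kept genes 50.6% were lower. The 10 markers of neurogenic progenitors averaged 7.92, 8.03 and 7.99 in the knockout and 7.66, 8.07 and 8.01 in the wild type. Radial glia markers averaged 9.65, 9.70 and 9.62 in the knockout and 9.57, 9.60 and 9.64 in the wild type. Endothelial markers averaged 4.33, 4.31 and 4.19 in the knockout and 4.25, 4.39 and 4.22 in the wild type, and microglial markers 3.29, 3.33 and 3.36 in the knockout and 3.22, 3.36 and 3.17 in the wild type. The part of these cells in the member values was not tested.

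The ligands and the other receptor of the PDGF family did not share the direction of Pdgfra. Of 6 genes, 3 were kept, and all 3 were higher in the knockout without passing, with a median log2 difference of 0.33. Pdgfa, the ligand of Pdgfra in precursors, read 5.93, 5.85 and 5.79 in the knockout and 5.82, 5.61 and 5.79 in the wild type, a difference of 0.12 (SE 0.09), and a second probe set gave -0.19. Pdgfc, another ligand of Pdgfra, differed by 0.33 (SE 0.14), with overlapping groups. Pdgfrb, the receptor of pericytes, read 7.33, 7.19 and 7.30 in the knockout and 6.92, 6.73 and 6.93 in the wild type. The knockout was higher there with no overlap, by 0.41 in the mean (SE 0.09, limma's adjusted p = 0.511), while a second kept probe set gave -0.15. Such separation with the knockout higher was found for 8.45% of all kept genes.

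Among 18 listed regulators of the lineage, 14 were kept, of which 7 were higher and 7 lower, with a median log2 difference of 0.06. None passed, and the groups did not overlap for 2 lower and 2 higher genes (7.96% and 8.45% over all kept genes). The lower ones were Olig2 and the HLH inhibitor Id4 (-0.24, SE 0.09, other probe sets up to 0.13), and the higher ones Olig1, the neighbour and relative of Olig2, and the HLH inhibitor Id2 (0.33, SE 0.08, another probe set 0.81). Olig1 read 8.47, 8.55 and 8.02 in the knockout and 7.17, 6.48 and 6.30 in the wild type. Sox9, the SoxE gene of early progenitors, read 7.56, 7.49 and 7.27 in the knockout and 7.80, 7.35 and 7.71 in the wild type. The difference was -0.18 (SE 0.15), and Sox9 was kept where Sox8 and Sox10 were not. Myrf and Nkx6-2, regulators of later oligodendrocytes, were at the floor on all arrays.

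Among 18 precursor surface and matrix genes, 8 were kept, of which 6 were lower and 2 higher, with a median log2 difference of -0.22. None passed, and the groups did not overlap for 2, both lower. Over all kept genes 50.6% were negative, and 7.96% were lower without overlap. Bcan, the proteoglycan brevican, read 3.94, 3.98 and 4.24 in the knockout and 5.51, 4.75 and 4.79 in the wild type. Ncan, the proteoglycan neurocan, read 11.05, 10.98 and 11.03 in the knockout and 11.48, 11.24 and 11.45 in the wild type, while its other probe sets reached 0.85 in the opposite direction. Cacng4, an AMPA receptor auxiliary subunit, differed by -0.70 (SE 0.47), of which wild-type replicate 1 at 8.60 carried most, since the other wild-type arrays read 6.96 and 7.02 and the knockout arrays 6.93, 7.01 and 6.53. Without wild-type replicate 1 Cacng4 differed by -0.16 at this probe set. A second kept probe set of Cacng4 gave -0.77 over all arrays. Vcan, the proteoglycan versican, differed by 0.15 (SE 0.09) at its brightest probe set and by down to -0.77 at others. Without knockout replicate 2 the median of this list was -0.07, and without knockout replicate 2 and wild-type replicate 1 it was -0.03.

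Genes of the premyelinating and myelin list differed in both directions. Of 27 listed genes 24 were matched, and 12 of them were within the floor window on all 6 arrays, among them Mag, Mog and Mobp, myelin proteins named after their values were seen. Of the 11 kept, 7 were lower and 4 higher, with a median log2 difference of -0.04, and none passed. The groups did not overlap for 2 lower and 2 higher genes (7.96% and 8.45% over all kept genes). Lower without overlap were Tcf7l2, a Wnt effector of differentiating oligodendrocytes and of thalamic neurons (-0.69, SE 0.22), and Nfasc, a cell adhesion molecule of axons and myelinating glia (-0.46, SE 0.27). The 4 kept probe sets of Tcf7l2 were all lower, from -0.94 to -0.49. Nfasc read 8.31 on wild-type replicate 1 and differed by -0.16 without that array. The other kept probe sets of Nfasc gave -0.55 and -0.04. Higher without overlap were Qdpr, dihydropteridine reductase (0.32, SE 0.15), and Ermn, a cytoskeletal protein of oligodendrocytes (0.42, SE 0.21). Ermn differed by 0.20 without wild-type replicate 1, and Qdpr by 0.18 without knockout replicate 4. A second kept probe set gave 0.41 for Ermn and 0.17 for Qdpr, whose brightest probe set has the suffix x.

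**Figure D5:**
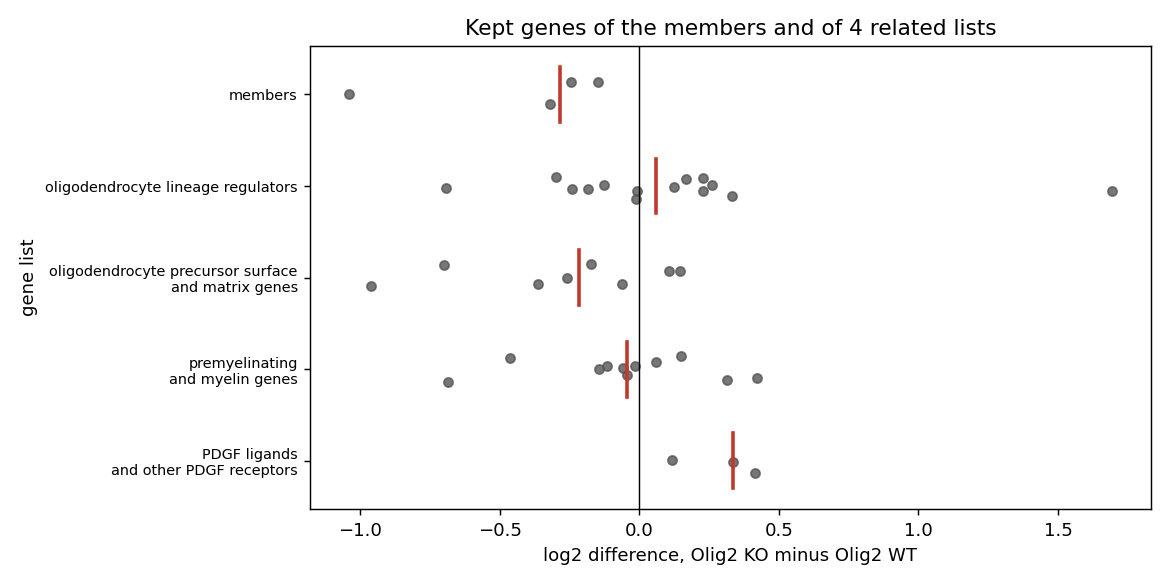
Log2 difference (x axis, Olig2 KO minus Olig2 WT) of each kept gene of the 4 kept members and of 4 related lists (rows; points are genes at their brightest kept probe set, spread vertically at random, and bars are medians). The medians are -0.28 for the members, 0.06, -0.22 and -0.04 for the regulator, surface and myelin lists and 0.33 for the PDGF list.

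Together the 4 related lists held 36 kept genes, of which 20 were lower and 16 higher, with a median of -0.01. Groups did not overlap for 6 lower and 5 higher genes, among them Olig2, the targeted gene, and its neighbour Olig1. Without Olig2 and Olig1, 5 lower and 4 higher of 34 genes had no overlap, where 7.96% and 8.45% of all kept genes did so. The lists were chosen with earlier results of these data known, so these counts are descriptions.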

How the data were processed

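Labelled cRNA from 6 ug of total RNA was hybridised to Affymetrix MOE430 2.0 arrays, per the labels' protocols. The deposited table gives log2 expression for each probe set. According to the series design text the authors used GCOS and MAS 5.0 for the images and GCRMA for quantile normalization and summarising, with versions not given in the sources used here. Quantile normalization hides any change in total RNA per cell. The 64 control probe sets were left out. Genes were named from the platform annotation, in which 34945 of 45037 probe sets had 1 symbol. Genotypes came from the sample titles.

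Genotypes were compared by a two-sided moderated test without a block, using lmFit and eBayes of limma 3.58.1 (R 4.3.3), tested on simulated data. The brightest kept probe set stood for a gene, and an array's floor was its 10th percentile. Named were all 8 members, up to 4 genes of lowest p per related list, 6 fixed genes and the 5 most like Pdgfra. Further marker genes were named after their values were seen. The members and lists were chosen with earlier results of these data known. Alternatives were other filters, normalizations and variance models, a replicate block, means over probe sets, and arrays left out.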

Additional observations from a re-analysis of the deposited data

How the results depend on the processing

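No probe set passed limma's adjusted threshold in the main setting or under any of the 17 alternatives, and none of the 4 kept members changed direction under any alternative run. Leaving out each array in turn gave from -1.57 to -0.70 for Pdgfra, -0.33 to -0.18 for Mbp, -0.40 to -0.25 for Cnp and -0.21 to -0.10 for Myt1. The count of probe sets with unadjusted p below 0.05 ran from 1111 to 3489 when arrays were left out singly, and was 3491 with array weights and 3191 without knockout replicate 2 and wild-type replicate 4. Without those 2 arrays Pdgfra differed by -1.65 and Myt1 by -0.24. With no filter the count of members with a negative difference was 8, but 4 of these signs come from readings near the floor and show nothing. Of all genes 40.3% were then negative, 39.6% positive and 20% at 0. The list medians depended on the setting. For the regulators they ran from -0.0088 to 0.11 with arrays left out singly and were -0.0028 with no filter and -0.018 with the mean of probe sets. For the surface and matrix genes they ran from -0.31 to -0.07 and were -0.041 with no filter and -0.0258 both with the replicate block and without knockout replicate 2 and wild-type replicate 1. For the myelin genes they ran from -0.0786 to 0.0769 and were -0.0023 with no filter, 0.0545 with array weights, and 0.0458 both with the replicate block and without knockout replicate 2 and wild-type replicate 1. For the PDGF list they ran from 0.24 to 0.43 and were 0.0722 with no filter, 0.25 with array weights and 0.13 with the mean of probe sets. No filter adds floor genes, whose differences are near 0. The cause of the other shifts was not tested. The replicate block, which uses only numbers 4 and 5, gave -1.33 for Pdgfra, -0.14 for Mbp, -0.21 for Cnp and -0.13 for Myt1, and 2014 probe sets with unadjusted p below 0.05. Deviations from the group mean correlated by -0.29 between the arrays numbered 4 and by 0.32 between those numbered 5, so the numbers were not taken to pair the arrays. Near the floor, at Sox10, Sox8, Cspg4 and Gpr17, signal over background limits what can be seen.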
